A study of Mus musculus with 4 samples.

Results

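Breakdown of the branched-chain amino acids leucine, isoleucine and valine was followed through 10 genes of the pathway in mouse liver: Bcat2, Bckdha, Bckdhb, Dbt, Bckdk, Ivd, Mccc1, Mccc2, Hibadh and Hibch. The members were chosen by gene symbol, and every probe set that the platform annotation gives to 1 of these symbols was taken, which gave 13 probe sets for 10 of the 12393 genes named on the array. Total liver RNA of 4 wild-type mice on the C57/BL6 background, all 1 month old, was hybridised to Affymetrix arrays, 1 array a mouse. The control group held 2 mice, and the starved group held 2 mice that went without food for 24 h. No other genotype, agent or allele is given for either group, although a description field calls the starved mice injected and the controls not injected, and what that refers to was not settled. The values are log2 RMA signals, on which a difference of 1 is a doubling, and each change given is that of the starved mean relative to the control mean.

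Branched-chain amino acids are first transaminated to keto acids, and the mitochondrial transaminase Bcat2 is known for low activity in hepatocytes and higher activity in muscle, so that much of the keto acid oxidised in liver arrives from other tissues. The keto acids are then committed to oxidation by the branched-chain keto acid dehydrogenase, a mitochondrial complex of a decarboxylase (Bckdha and Bckdhb), an acyltransferase core (Dbt) and a shared dehydrogenase (Dld). The kinase Bckdk phosphorylates the Bckdha subunit and switches the complex off, and the phosphatase Ppm1k switches it on again. After this step the routes part, with Ivd, Mccc1 and Mccc2 on the leucine branch and Hibch and Hibadh on the valine branch.

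None of the 13 member probe sets passed the test over all probe sets (limma with Benjamini-Hochberg adjustment, adjusted p from 0.242 to 0.99). By the size of their changes the members fell into a small group with higher signals in starved liver, namely Bcat2, the kinase Bckdk and 1 of the 2 probe sets of Hibch at 1.35-fold to 1.41-fold, and a larger group with changes between -0.10 and 0.22 on the log2 scale. Those 3 probe sets were also the only ones of the 13 at an unadjusted p under 0.05 in limma, all with the starved arrays higher. The subunits of the dehydrogenase that the kinase acts on, and the leucine branch after it, were in the group with small changes. The test called 0 of the 13 members and 13 of 22626 probe sets in all, a background of 0.0575%, with 4 higher (0.0177%) and 9 lower (0.0398%). At an unadjusted p under 0.05 the background was 11.5% in both directions and 5.42% for starved higher, against 3 of 13 member probe sets.

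**Figure D1:**
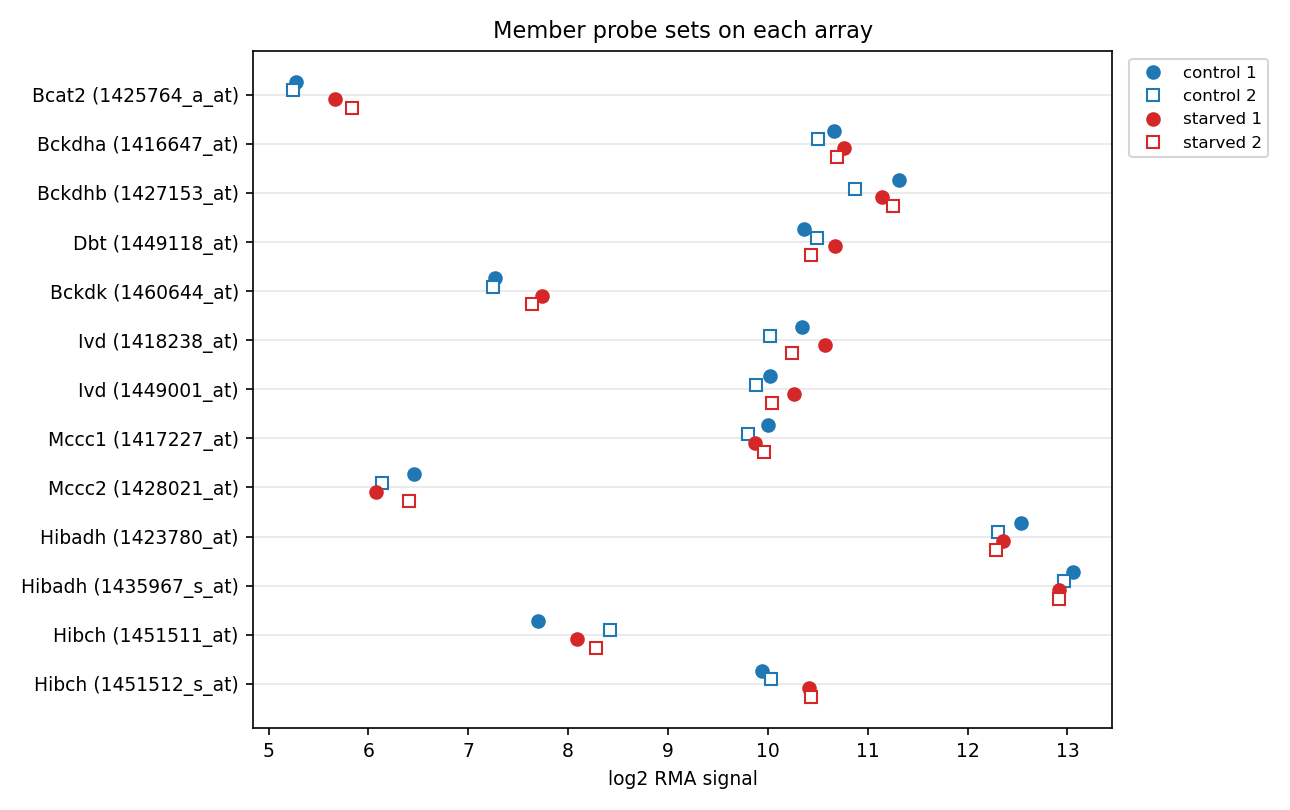
Log2 RMA signal (horizontal axis) of each of the 13 member probe sets (rows) on each of the 4 arrays, control in blue and starved in red, with filled circles for replicate 1 and open squares for replicate 2. The starved points lie to the right of both control points for Bcat2, Bckdk and the second Hibch row, whereas in most other rows the colours interleave.

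Promoter sequence was at hand for 9 of the 10 members (all but Dbt), from RefSeq gene starts on GRCm38.p6. It is shown for the 3 members with a probe set at an unadjusted p under 0.05 in limma, as these probe sets had the largest changes. For Hibch this held for 1 of its 2 probe sets only, and the other had a log2 change of 0.13. Each line gives the 250 bases before the gene start, 5′ to 3′ on the gene's strand, and Bcat2 has 2 annotated starts. Capitals mark matches on either strand to CCAAT, which nuclear factor Y reads, GGGCGG, known as the GC box, TATAAA, known from core promoters, AGGTCA, the half-site of many nuclear receptors, and CACGTG, known as an E-box. Matches may overlap. Bcat2 lies at chr7:45569903-45570152 and chr7:45571029-45571278, Bckdk at chr7:127903823-127904072 and Hibch at chr1:52844788-52845037, all on the plus strand.
Bcat2 upstream start: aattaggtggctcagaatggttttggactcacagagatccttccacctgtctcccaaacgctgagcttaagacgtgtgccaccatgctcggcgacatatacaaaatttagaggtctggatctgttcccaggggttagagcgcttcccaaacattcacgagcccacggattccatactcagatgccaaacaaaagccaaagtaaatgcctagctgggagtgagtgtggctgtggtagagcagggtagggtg
Bcat2 downstream start: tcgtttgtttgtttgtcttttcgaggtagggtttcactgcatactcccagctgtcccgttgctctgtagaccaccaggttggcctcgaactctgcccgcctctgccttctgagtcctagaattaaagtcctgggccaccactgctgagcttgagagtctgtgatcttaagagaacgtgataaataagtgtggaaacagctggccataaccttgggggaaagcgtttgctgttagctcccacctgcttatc
Bckdk: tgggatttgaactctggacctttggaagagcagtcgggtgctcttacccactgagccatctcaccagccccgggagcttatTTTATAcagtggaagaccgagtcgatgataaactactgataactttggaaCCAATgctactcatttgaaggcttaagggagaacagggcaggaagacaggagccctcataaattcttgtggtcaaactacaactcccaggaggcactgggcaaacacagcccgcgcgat
Hibch: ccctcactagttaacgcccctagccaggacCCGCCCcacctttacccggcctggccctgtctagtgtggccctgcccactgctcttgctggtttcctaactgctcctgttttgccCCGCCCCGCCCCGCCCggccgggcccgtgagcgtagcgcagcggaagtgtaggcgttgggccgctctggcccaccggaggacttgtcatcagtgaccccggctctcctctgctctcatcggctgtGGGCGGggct

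Neither Bcat2 window held any of these letters. The Bckdk window held 1 CCAAT and 1 TATAAA match, and the Hibch window held 5 GGGCGG matches, of which 3 stand in a row with shared bases. Hibch had a GC content of 68.0%, against 50.0% for Bckdk, 50.4% for both Bcat2 windows and a median of 52.4% over all 32851 promoter windows. Over those windows CCAAT was found in 33.8%, GGGCGG in 32.7%, TATAAA in 12.4%, AGGTCA in 14.0% and CACGTG in 6.0%. Among the 11 windows of the 9 members, CCAAT was found in 6 (Bckdhb, Bckdk, Hibadh, Ivd, Mccc1 and Mccc2) and GGGCGG in 4 (Bckdhb, Hibadh, Hibch and Mccc1). TATAAA was found in Bckdk alone of the 9 members, AGGTCA in Bckdhb alone and CACGTG in Mccc2 alone. As neither Bcat2 window held a match, none of these 5 motifs could be common to Bcat2, Bckdk and Hibch, whatever the other windows held.

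Liver identity was checked on markers. Of 7 hepatocyte markers 6 were measured, and all 6 were above the array median on every array, with a summed log2 signal of 17.21 to 17.35. Array medians were 6.71 to 6.74 and the lower quartiles 5.08 to 5.13. The array labelled control 2 stood apart for acute phase genes, whose 8 markers summed to 17.18 there and to 15.88 to 15.93 on the other 3 arrays. RNA integrity was read from the 3′ minus 5′ gap of the actin control probe sets, which was 1.79 and 1.76 on the controls, 2.06 on starved 1 and 1.85 on starved 2. The same gap for Gapdh was 0.65 and 0.54 on the controls, 0.86 on starved 1 and 0.48 on starved 2, so starved 2 was the lowest of the 4 arrays for Gapdh. In a piece of tissue, fewer cells of a type and less RNA per cell cannot be told apart.

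Bcat2, the mitochondrial transaminase of the first step, had the largest change of the members. Its probe set 1425764_a_at read 5.28 and 5.24 on the control arrays and 5.67 and 5.84 on the starved arrays. Both starved arrays were above both controls, and each starved array exceeded each control by 0.39 to 0.60. The log2 change of 0.50 ± 0.12 (SE, n = 2 per group), or 1.41-fold, had a 95% interval of 0.19 to 0.80 and did not pass the test (limma, adjusted p = 0.242). It was larger in size than that of 93.7% of all probe sets. All 4 signals lay below the array medians, so this was a difference at low signal.

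Markers of skeletal muscle, adipocytes, pancreatic acinar cells and cholangiocytes were read beside Bcat2. The 6 skeletal muscle markers summed to 8.23 and 8.17 on the controls and to 8.17 on both starved arrays, and 0 of the 6 were above the array median on every array. Of 5 adipocyte markers 3 were measured, and they summed to 6.74 and 6.84 on the controls and 7.03 and 7.05 on the starved arrays. Of these 3 markers Adipoq, the adipocyte hormone adiponectin, read only 3.51 to 3.73, and Adipoq and Lep were below the lower quartile on every array. The adipocyte sum was mostly Retn, with 6.34 and 6.49 on the controls and 6.66 and 6.72 on the starved arrays. The 4 measured of 6 pancreatic acinar markers summed to 10.75 and 10.73 on the controls and 9.45 and 9.75 on the starved arrays, mostly through Cela1, an elastase, with 10.62 and 10.58 against 9.12 and 9.46. The 4 measured cholangiocyte markers summed to 7.63 and 7.62 on the controls and 7.74 and 8.01 on the starved arrays, and 0 of the 4 were above the array median on every array. Of the 4, only Sox9 was higher on both starved arrays (6.53 and 6.89) than on both controls (6.11 and 6.36). For Krt19, Krt7 and Epcam the groups overlapped. The adipocyte and cholangiocyte sums thus moved in the direction of Bcat2, as of Bckdk and Hibch 1451512_s_at, and the acinar sum in the opposite direction. The part of any of them in these results was not tested.

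Bckdk, the kinase that inactivates the dehydrogenase, was the regulator among the members. Its probe set 1460644_at read 7.27 and 7.25 on the controls and 7.74 and 7.64 on the starved arrays. The control arrays were nearly equal and the starved arrays both higher, by 0.37 to 0.49 in each pairing of a starved with a control array. The log2 change was 0.43 ± 0.11 (SE, n = 2 per group), or 1.35-fold, with a 95% interval of 0.15 to 0.71, and did not pass the test (limma, adjusted p = 0.269). The 3′ to 5′ gap was also higher on both starved arrays for actin (2.06 and 1.85 against 1.79 and 1.76), but for Gapdh only on starved 1 (0.86, with 0.48 on starved 2, against 0.65 and 0.54). The part of either in this result was not tested.

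The subunits of the dehydrogenase had changes of 0.11 to 0.15. Bckdha, the decarboxylase subunit that Bckdk phosphorylates, read 10.66 and 10.50 on the controls and 10.76 and 10.69 on the starved arrays (1416647_at). The groups did not overlap, but the closest pair was only 0.03 apart. The log2 change was 0.15 ± 0.12 (SE), with a 95% interval of -0.15 to 0.45 (limma, adjusted p = 0.721).

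Bckdhb, its partner subunit, read 11.31 and 10.87 on the controls and 11.14 and 11.25 on the starved arrays (1427153_at). Both starved values lay between the control values, and the control gap of 0.44 was larger than the log2 change of 0.11 ± 0.17 (SE). Dbt, the acyltransferase core, read 10.36 and 10.49 on the controls and 10.67 and 10.43 on the starved arrays (1449118_at), with a log2 change of 0.13 ± 0.14 (SE). Starved 2 lay between the controls, so the groups overlapped. The adjusted p was 0.89 for Bckdhb and 0.807 for Dbt in limma.

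The 95% intervals reached 0.53 for Bckdhb and 0.46 for Dbt, and so covered the 0.43 seen for Bckdk. A change of the kinase size in the subunits could therefore not be told from none with these arrays, and whether kinase and subunits differed was not tested. Dld, the dehydrogenase subunit shared with other keto acid dehydrogenases, read 9.72 and 10.09 on the controls and 9.93 and 9.97 on the starved arrays. Its log2 change was 0.04 ± 0.15 (SE; limma, adjusted p = 0.96).

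On the leucine branch, Ivd, the isovaleryl-CoA dehydrogenase, was measured by a pair of probe sets that followed each other. Probe set 1418238_at read 10.34 and 10.02 on the controls and 10.57 and 10.24 on the starved arrays. Probe set 1449001_at read 10.02 and 9.88 on the controls and 10.26 and 10.04 on the starved arrays. In both, the array of replicate 1 was above that of replicate 2 within each group, and the gap between arrays of a group (0.14 to 0.33) was about as large as the log2 changes of 0.22 ± 0.18 and 0.20 ± 0.14 (SE). The groups overlapped in the former, and in the latter the closest pair was 0.01 apart (limma, adjusted p = 0.707 and 0.652).

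The summed signal of 5 endothelial markers had the same order as Ivd within each group, with 10.43 and 9.61 on the controls and 10.45 and 9.96 on the starved arrays. So had the hepatocyte sum, with 17.31 and 17.21 on the controls and 17.35 and 17.23 on the starved arrays. Within the starved group Alb, Ttr and Pecam1 had the other order, and the other measured markers of both lists had that of the sums. The part of either sum in the Ivd values was not tested.

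The subunits of methylcrotonyl-CoA carboxylase, the next enzyme on the leucine branch, showed the smallest changes of the members. Mccc1, the biotin-carrying subunit, read 9.80 on control 2, 0.20 more on control 1, and 9.87 and 9.96 on the starved arrays (1417227_at), with a log2 change of 0.01 ± 0.13 (SE). Mccc2, the carboxyltransferase subunit, read 6.46 and 6.14 on the controls and 6.08 and 6.41 on the starved arrays (1428021_at), with a log2 change of -0.06 ± 0.17 (SE). In both the groups overlapped, and the adjusted p was 0.99 and 0.948 in limma. The 95% interval of Mccc1 ran from -0.30 to 0.33, and that of Mccc2 from -0.49 to 0.37. All Mccc2 signals were below the array medians.

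On the valine branch, Hibch, which frees hydroxyisobutyrate from its CoA ester, gave different answers from its 2 probe sets. Probe set 1451512_s_at read 9.94 and 10.03 on the controls and 10.41 and 10.43 on the starved arrays. Here both groups were tight and did not overlap, and the log2 change of 0.44 ± 0.11 (SE), or 1.35-fold, had a 95% interval of 0.15 to 0.72 (limma, adjusted p = 0.264). Probe set 1451511_at read 7.70 and 8.42 on the controls and 8.09 and 8.28 on the starved arrays. Both starved values lay between the control values, whose gap of 0.72 was the widest of any member, and the log2 change was 0.13 ± 0.24 (SE; limma, adjusted p = 0.908).

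The low control value of 1451511_at came from control 1. Without control 1 its log2 change was -0.23, and without control 2 it was 0.49, while 1451512_s_at stayed between 0.39 and 0.48 with any array left out. The mean of both probe sets gave 0.28 ± 0.16 (SE; limma over genes, adjusted p = 0.569). Probe sets ending in _s_at can hybridise to related transcripts, so the larger Hibch change rests on the less specific type.

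Hibadh, the hydroxyisobutyrate dehydrogenase that follows, was the valine branch member with lower starved means. Probe set 1423780_at read 12.53 and 12.30 on the controls and 12.35 and 12.28 on the starved arrays. Probe set 1435967_s_at read 13.06 and 12.97 on the controls and 12.92 on both starved arrays. The starved arrays were below both controls only in 1435967_s_at, by 0.05 to 0.15. Both probe sets had a log2 change of -0.10 (SE 0.13 and 0.11; limma, adjusted p = 0.848 and 0.828), with 95% intervals of -0.42 to 0.22 and -0.38 to 0.18.

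**Figure D2:**
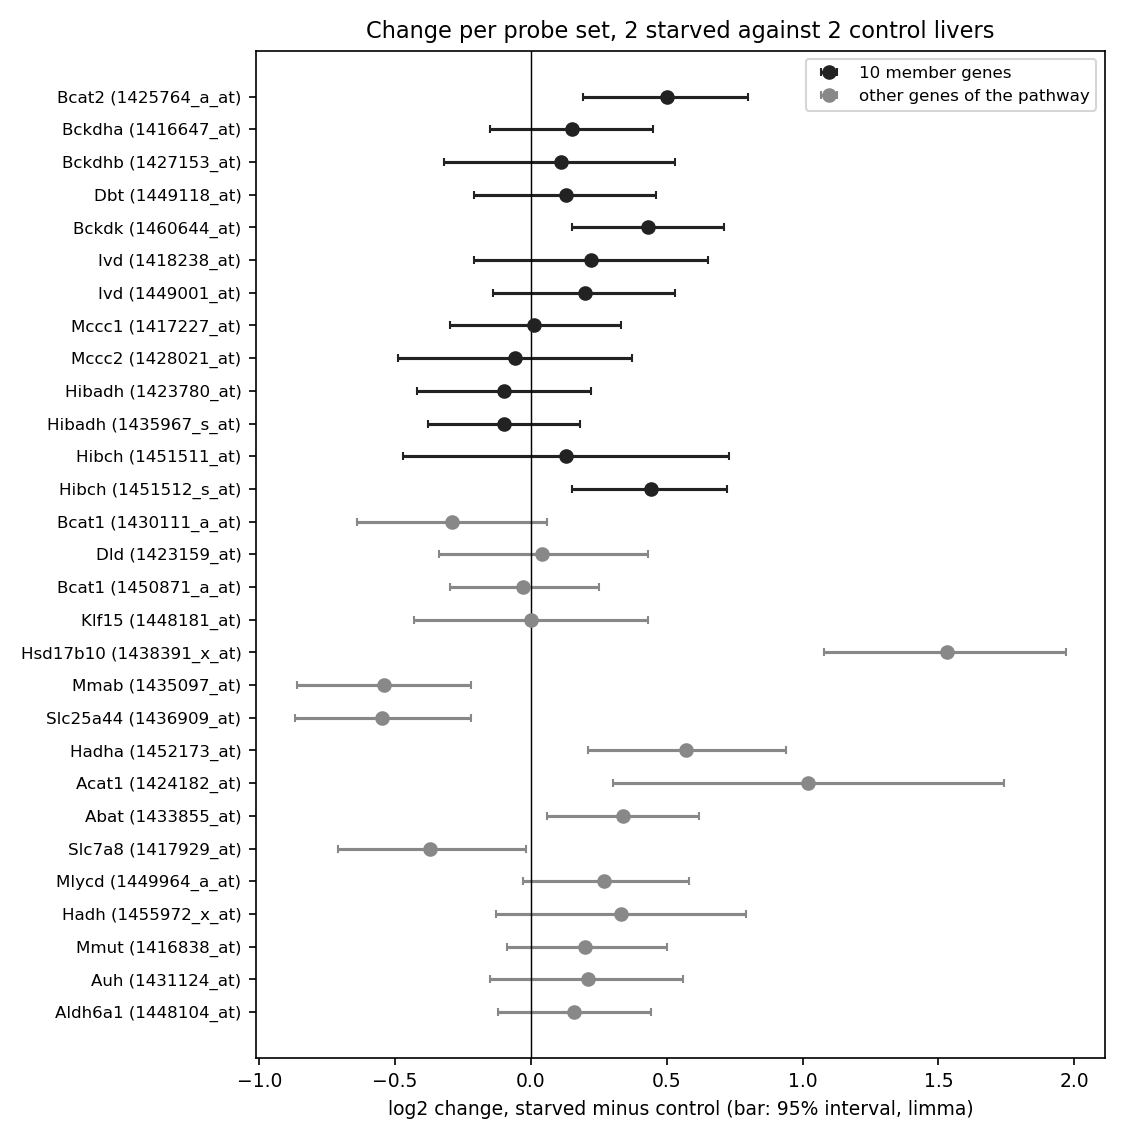
Log2 change (starved minus control, horizontal axis) with its 95% interval from limma for the 13 member probe sets (black) and for named probe sets of other genes of the pathway (grey). Only Bcat2, Bckdk and 1451512_s_at of Hibch have member intervals above 0, and Hsd17b10 at 1.53 has the largest change plotted.

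Over the 13 member probe sets, 10 had a positive and 3 a negative change, against 11493 positive and 11133 negative of all 22626 probe sets. Both probe sets of Ivd and of Hibch were among the 10, and both of Hibadh among the 3. The median log2 change of the members was 0.13, against 0.00 over all 22626 probe sets. The median size of a change regardless of sign was 0.13 both for the members and for all probe sets. Both starved arrays lay above both controls in 5 member probe sets (Bcat2, Bckdha, Bckdk and 1 each of Ivd and Hibch), against a background of 21.3%. Both lay below in 1, of Hibadh, against 20.6%. In 10 of 13 the gap between arrays of 1 group was larger than the change, and the 3 exceptions were Bcat2, Bckdk and 1451512_s_at of Hibch. Control 1 was above control 2 in 10 of the 13, and the acute phase sum was higher on control 2. The part of the acute phase genes in the control values was not tested. The counts of gaps and of control 1 above control 2 have no share over all probe sets beside them.

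**Figure D3:**
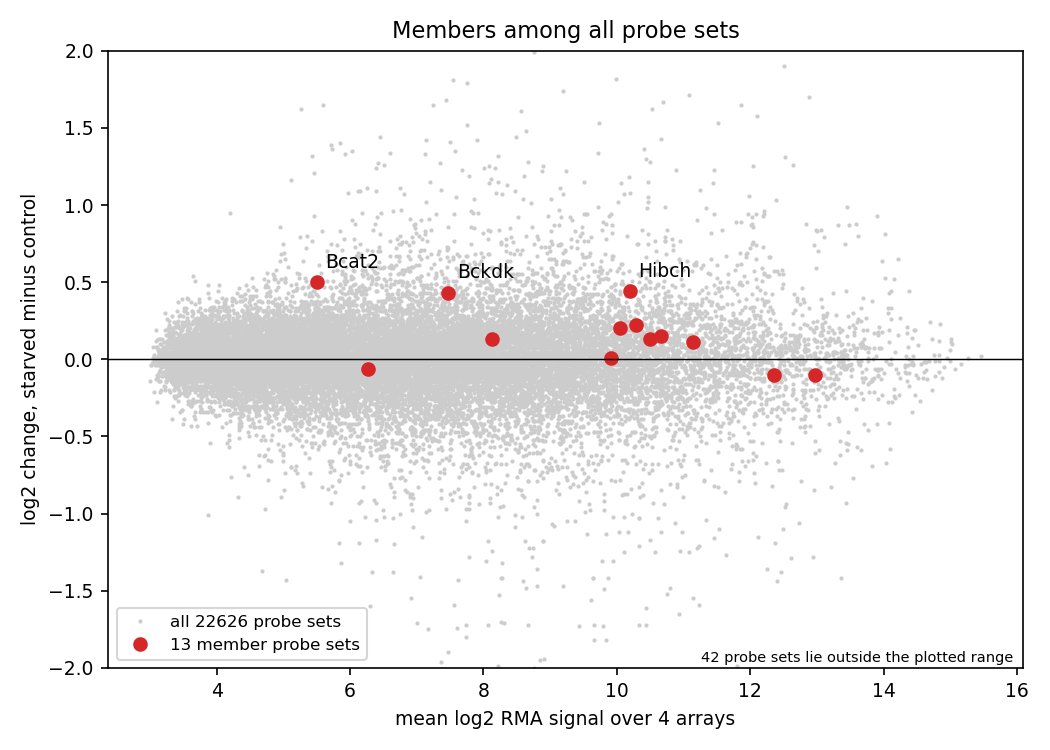
Log2 change (vertical axis) against the mean log2 signal over 4 arrays (horizontal axis) for all 22626 probe sets (grey) and the 13 member probe sets (red); 42 probe sets lie outside the plotted range of -2 to 2. The members lie within the grey cloud, and the 3 named ones, at 0.43 to 0.50, lie toward its upper part.

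Leaving out each array in turn left the direction of Bcat2, Bckdha, Dbt, Bckdk, both Ivd probe sets, 1435967_s_at of Hibadh and 1451512_s_at of Hibch as it was. Bcat2 ranged from 0.41 to 0.58 and Bckdk from 0.38 to 0.48. The smaller changes moved more. Bckdha had 0.07 without control 2 and 0.23 without control 1, and Dbt had 0.01 without starved 1 and 0.25 without starved 2. For Ivd, 1418238_at ranged from 0.05 without starved 1 to 0.39 without starved 2, and 1449001_at from 0.09 to 0.31 in the same fits. Hibadh 1435967_s_at ranged from -0.15 without control 2 to -0.05 without control 1. The sign turned for Bckdhb (-0.12 without control 2), Mccc1 (-0.09 without control 2 and -0.03 without starved 2), Mccc2 (0.10 without control 1 and 0.10 without starved 1), 1423780_at of Hibadh (0.01 without control 1) and 1451511_at of Hibch. The members' median was 0.23 with control 1 left out, 0.07 with control 2 left out, and 0.10 and 0.18 with starved 1 and starved 2 left out. No member passed the test in any of these fits (limma, smallest adjusted p = 0.306 for Bcat2, without control 1). Member counts at an unadjusted p are not given for these fits, because no share over all probe sets was computed for them.

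**Figure D4:**
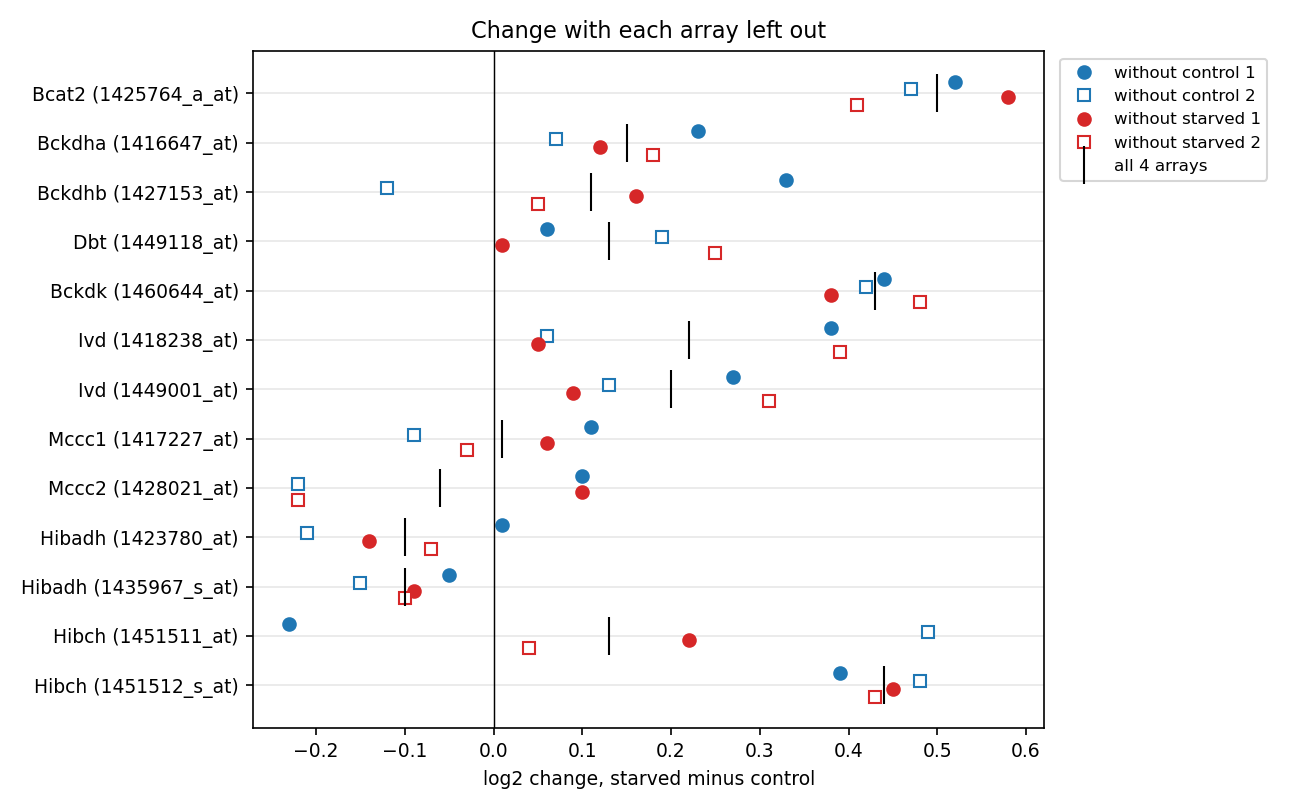
Log2 change (starved minus control, horizontal axis) of each member probe set with 1 array left out (blue for a control array, red for a starved array) and with all 4 arrays (black bar). Bcat2, Bckdk and 1451512_s_at of Hibch stay to the right of 0.37, whereas 1451511_at of Hibch spans -0.23 to 0.49.

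Other genes of the pathway were read from a list of 32, of which 28 were matched by 50 probe sets. The phosphatase Ppm1k was among those not analysed here. The test called 0 of the 50 in either direction (limma, smallest adjusted p = 0.071). At an unadjusted p under 0.05 in limma 7 probe sets were higher in starved liver (background 5.42%) and 5 lower (background 6.04%). Several of these were probe sets of the same gene, namely of Hsd17b10 and Acat1 among the higher, and of Mmab and Slc25a44 among the lower. With 1 probe set a gene, 4 of 28 were higher and 2 lower, and no share over all genes was computed for that setting. The median log2 change was 0.05. The transaminase Bcat1, the cytosolic counterpart of Bcat2, read 4.80 and 4.97 on the controls and 4.47 and 4.71 on the starved arrays (1430111_a_at). Its log2 change of -0.29 ± 0.14 (SE; limma, adjusted p = 0.502) had the opposite sign to that of Bcat2, and another probe set gave -0.03. Both transaminases had low signals, all below the array medians.

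On the isoleucine branch, which has no gene of its own among the 10, Hsd17b10 and Acat1 had larger changes than any member. Hsd17b10, which oxidises methyl-hydroxybutyryl-CoA and is also a subunit of mitochondrial RNase P, read 10.97 and 10.54 on the controls and 12.40 and 12.17 on the starved arrays (1438391_x_at). Its log2 change was 1.53 ± 0.18 (SE), or 2.88-fold, and its other probe set, 1448286_at, gave 1.31 ± 0.17. Neither passed the test (limma, adjusted p = 0.071 and 0.0853). Both passed without control 1 (limma, adjusted p = 0.0474 and 0.0482) and with trend and robust settings (limma, adjusted p = 0.0418 and 0.0432). In the same order, the adjusted p in limma was 0.139 and 0.158 without control 2, 0.314 and 0.373 without starved 1, 0.148 and 0.212 without starved 2, and 0.146 and 0.164 with the replicate block.

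Acat1, the thiolase that ends the isoleucine branch and also serves ketone body formation, read 9.87 and 9.14 on the controls and 10.24 and 10.81 on the starved arrays (1424182_at). Its log2 change was 1.02 ± 0.29 (SE; limma, adjusted p = 0.296), and its other probe sets gave 0.70 and 0.57. Hadha, the alpha subunit of the trifunctional protein of fatty acid oxidation, had 0.57 ± 0.15 (limma, adjusted p = 0.257). Both genes also belong to fat or ketone metabolism, so they are not specific to amino acid breakdown. Acadsb, the short/branched-chain acyl-CoA dehydrogenase of the isoleucine branch, had a log2 change of -0.14 (chosen after its values were seen).

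On the remaining steps of valine and propionate use, Abat, Aldh6a1, Mmut and Mmab were picked for a small p in limma. Among other enzymes of these steps, log2 changes were 0.23 for Pcca, 0.05 for Pccb, -0.01 for Mcee and -0.13 for Echs1. Acad8 gave 0.01 and -0.07 (all of these chosen after their values were seen). Abat, the mitochondrial GABA transaminase, had a log2 change of 0.34 ± 0.11 (SE; 1433855_at; limma, adjusted p = 0.349). Its other probe set, with signals below the array medians, gave -0.02. Aldh6a1, the methylmalonate semialdehyde dehydrogenase after Hibadh, read 12.63 and 12.68 on the controls and 12.77 and 12.85 on the starved arrays. Its log2 change was 0.16 ± 0.11 (limma, adjusted p = 0.664). Mmut, the methylmalonyl-CoA mutase, had 0.20 ± 0.12 (1416838_at). Its other probe sets gave 0.22 (1448486_at) and 0.20 (1416839_at), the latter at signals of only 3.21 to 3.53. Mmab, which makes the adenosylcobalamin cofactor of that mutase, read 6.36 and 6.47 on the controls and 5.78 and 5.97 on the starved arrays (1435097_at), a log2 change of -0.54 ± 0.13 (limma, adjusted p = 0.23). Its other probe sets gave -0.65 and -0.18. The mutase and the gene for its cofactor thus had changes of opposite sign, neither past the test.

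Of the carriers, Slc25a44, a mitochondrial carrier of branched-chain amino acids, read 8.69 and 8.63 on the controls and 8.23 and 7.99 on the starved arrays (1436909_at). Its log2 change was -0.55 ± 0.13 (SE; limma, adjusted p = 0.236), with -0.37 and 0.05 from its other probe sets. Slc7a8, a plasma membrane carrier of large neutral amino acids, had -0.37 ± 0.14 at signals of 4.48 to 5.04 (limma, adjusted p = 0.408). Klf15, a transcription factor known to drive amino acid breakdown, read 10.99 and 10.76 on the controls and 11.07 and 10.68 on the starved arrays. Its log2 change was 0.00 ± 0.17 (limma, adjusted p = 1). Mlycd, the malonyl-CoA decarboxylase, had 0.27 ± 0.12, Hadh 0.33 ± 0.19 and the leucine branch hydratase Auh 0.21 ± 0.14, none past the test (limma, adjusted p = 0.479 to 0.656). Other probe sets gave 0.37 and 0.01 for Hadh and 0.23, 0.11 and 0.00 for Auh.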

How the data were processed

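The deposited values are log2 signals, 1 per probe set, which the authors computed by RMA (affy package), according to the submitters' processing notes. Neither versions nor settings, nor which arrays were normalized together, could be read from the labels. RMA equalises the arrays' distributions, which would hide a shift of all transcripts at once.

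Of 22690 probe sets, 64 Affymetrix controls were left out. Of the rest, 20380 had 1 symbol, 691 several and 1555 none, and 0 of the 691 named a member. Current symbols came from a RefSeq table of GRCm38.p6 by Entrez identifier (20351 matched).

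Starved and control arrays were compared per probe set with lmFit and eBayes in limma 3.58.1 (R 4.3.3), two-sided, without covariates, with Benjamini-Hochberg adjustment over 22626 probe sets and a threshold of 0.05. The median SE was 0.133 and the total degrees of freedom 5.83. The number of arrays limits the precision, and an exact permutation test of 2 against 2 cannot give a p below 0.333. The labels call the samples of a group biological replicates. Deviations of same-numbered arrays from their group means had a correlation of 0.04, so numbers were not used as pairs. The code was tested on simulated data with planted changes larger than that of any member. That test does not bear on whether changes of the members' size can be detected.

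Members, lists and tests were chosen with earlier results of these data known. Named were all member probe sets, Bcat1, Dld and Klf15, and the 12 other pathway genes with the smallest p. Acadsb, Pcca, Pccb, Mcee, Echs1 and Acad8 were added after their values were seen. Marker signals were summed on the linear scale over the highest probe set of each gene. The summed log2 signals of the lists not given elsewhere were 12.71 to 13.02 for macrophages, 10.25 to 11.02 for stellate cells and 10.28 to 10.61 for blood.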

Additional observations from a re-analysis of the deposited data

How the results depend on the processing

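No member passed the limma test under any alternative: a shift of each array to 1 common median, repeated quantile normalization, removal of the 40% of probe sets with the lowest mean (Bcat2 among them), 1 probe set or the mean of all probe sets a gene, removal of _x_at and _s_at probe sets, trend and robust settings, the replicate block, and each array left out. With 1 array left out, the lone array is taken to vary as the other group does. Outside the fits with an array left out no member changed sign. With an array left out, the log2 change spanned -0.12 to 0.33 for Bckdhb, -0.09 to 0.11 for Mccc1, -0.22 to 0.10 for Mccc2, -0.21 to 0.01 for 1423780_at of Hibadh and -0.23 to 0.49 for 1451511_at of Hibch. The median of the members spanned 0.07 to 0.23 and that of the other pathway genes 0.02 to 0.11, or 0.12 without the lowest 40%. The count over all probe sets was 13, and 2 to 57 with an array left out (57 without control 1, 2 without starved 1). It was 8 with 1 probe set a gene, 23 without _x_at and _s_at probe sets, 59 with trend and robust settings and 0 at an adjusted p of 0.01. With the replicate block it was 0, and the smallest member adjusted p was 0.337 (Bcat2, limma). The other pathway genes had 2 calls, both of Hsd17b10, with trend and robust settings and 0 to 2 with an array left out. At an unadjusted p under 0.05 they had 4 higher and 2 lower of 28 with 1 probe set a gene. They had 3 and 2 of 28 with the mean a gene, and 7 and 3 of 40 probe sets without the lowest 40%. With an array left out they had 2 to 10 higher and 3 to 4 lower. The fits with an array left out held all 50 probe sets of these genes. No share over all probe sets was computed at an unadjusted p for any of these settings. These counts therefore have no background beside them, and those from sets of different size cannot be compared directly. Low signals such as those of Bcat2, Bcat1 and Mccc2 limit what can be read from their changes.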
